A study of Bos taurus with 6 samples.

Results

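Short unmethylated CpG-dense islands of the cattle autosomes were described in primary cells of the rumen epithelium, from whole-genome bisulfite sequencing (WGBS). An island window was a stretch of 500 bp with over 30 distinct CpGs and a low methylation level, and it belonged to a run of 1 to 5 adjacent low windows. A window was low when it held at least 20 reads over the 6 libraries and under 15% of these reads were methylated. The windows were thus chosen by their level pooled over both groups, and their low level is a description of the choice and not a finding. The choice used no difference between the groups. In total, 22451 windows in 13986 runs were obtained, out of 4551536 windows with a read in the whole series and 4319174 such windows on the 29 autosomes.

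The rumen is the large fermenting forestomach of cattle, and its inner lining was the source of the cultured cells. They all came from 1 Holstein bull calf of 2 weeks that was fed milk replacer. The control group comprised 3 libraries of untreated cells, and the butyrate group comprised 3 libraries of cells kept for 24 h in 5 mM butyrate. The study's methods call the libraries of a group biological replicates, but they were not separate animals, and no statement on separate cultures was found in the sources used here. The p-values of the exact permutation tests measure the spread between these libraries. Those of the logistic regression, used below for single windows, do not. The comparison addressed whether DNA methylation differed after 24 h of butyrate. Butyrate libraries 1 and 3 were sequenced on lane 5 and butyrate library 2 and all controls on lane 6, so that lane and treatment cannot be told apart for those 2 libraries.

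CpG islands are stretches where the pair C followed by G has been kept, whereas most of a mammalian genome has lost it. Methylation of the cytosine in this pair is written by DNA methyltransferases and removed through TET enzymes or through cell division without copying. Islands are usually free of it, many of them hold the start of a gene, and methylation of such a start is associated with silencing. Butyrate is made by rumen microbes, feeds the rumen epithelium and inhibits histone deacetylases. Genes at the positions described here were not analysed here, and no sequence is shown, because the genome and annotation of the files' build, UMD3.1.1, were not used here.

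The files gave, for each cytosine of a CpG, the methylated and unmethylated read counts. Depth was low, with 18793438 to 23842285 reads per library summed over all CpGs. A CpG inside the islands was covered by 0.888 to 1.17 reads per library, against 0.756 to 0.959 over all autosomal CpGs. Single CpGs were thus thinly read, and levels below are mostly sums over many islands. An island window held a median of 241 reads over the 6 libraries and a range of 33 to 28681. In 1 library the median island window held 38 reads, and 243 to 637 of the islands had none.

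CpG-dense windows lay mostly under 15% or above 50%, and the islands made up most of those under 15%. Of the 45012 autosomal windows with over 30 CpGs, 49.9% were islands, 9.22% were low but lay in runs of 6 or more low windows, and 40.9% were not low. By pooled level, 22614 of these windows lay under 5%, 2874 at 5 to 10% and 1111 at 10 to 15%. Then came 636 at 15 to 20%, 869 at 20 to 30% and 1271 at 30 to 50%, and above these 6080 at 50 to 80% and 9557 at 80% or more. The 15% threshold therefore cut through a thinly filled part of the distribution. Just inside it, the 3 islands of the highest pooled level, chr18:62761001-62761500, chr13:81524501-81525000 and chr25:1629001-1629500, had 14.98%, 14.97% and 14.97%. Just outside it, chr2:122053001-122053500, chr7:1350001-1350500 and chr10:69452501-69453000 had exactly 15% and met the other criteria.

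**Figure D1:**
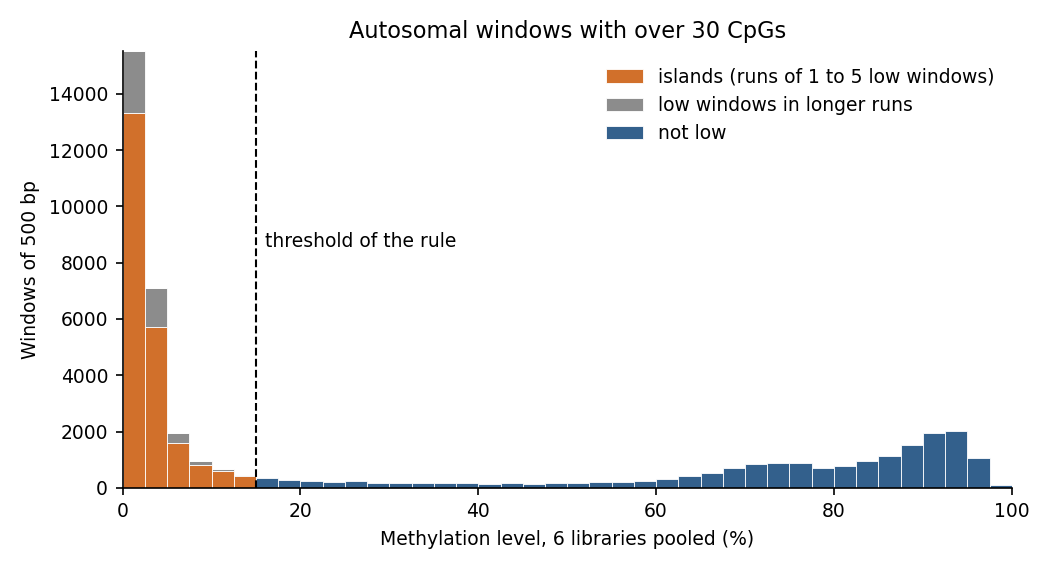
Number of autosomal 500-bp windows with over 30 CpGs (vertical axis) by methylation level pooled over the 6 libraries (horizontal axis, %, bins of 2.5 points), with islands, low windows of longer runs and windows that are not low stacked. The windows pile up under 5% and again above 60%, and the dashed line at 15% lies where few windows are found.

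The islands covered 11.2 Mb. They were 0.520% of the autosomal windows with a read and held 1041415 of 23717535 autosomal CpGs, or 4.39%. A CpG was counted when it was listed in at least 1 of the 6 libraries, so the numbers of CpGs can depend on depth. A typical island window had 44 CpGs, the densest had 98, and its pooled level was 2.14% at the median and 9.56% at the 95th percentile. Under 5% were 84.8% of the islands, and 1015 of them lay at 10 to 15%. In 573 islands no methylated read was counted in any library. These had a median of 135 reads, for which a count of 0 allows a level of up to 2.22% (3 counts, counting error only).

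The islands were also read library by library, which describes the libraries that chose them and is no separate support. In 14764 islands every library had at least 10 reads, and 13192 of these, or 89.4%, were under 15% in all 6 libraries. A further 981 were under 15% in 5 libraries and 591 in 4 or fewer. A level of 30% or more in at least 1 library was seen in 221 islands and of 50% or more in 33.

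Islands chosen on some libraries were also low in the others. With the same rule applied to control 1 and butyrate 1 alone, 23727 windows were chosen, of which 21187 were islands of the full set. Their level was 3.24% in the 2 libraries that chose them and 3.46% in the 4 that did not. The 4 held-out libraries gave 3.44% and 3.47% in control 2 and 3, and 3.43% and 3.48% in butyrate 2 and 3. The 2 groups overlapped in these libraries, and butyrate minus control was -0.000903 points (exact permutation p = 1, where 2 against 2 libraries cannot go below 0.333).

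The level inside the islands did not separate butyrate from control. It was 3.42%, 3.35% and 3.39% in control 1, 2 and 3, and 3.48%, 3.35% and 3.37% in butyrate 1, 2 and 3. Butyrate 1 was the highest and control 2 the lowest, and the groups overlapped. The control mean was 3.38% ± 0.0355 (SD, n = 3). The butyrate mean was 3.399% ± 0.0676 (SD, n = 3). Their difference of 0.0151 points had an SE of 0.0441 and a two-sided exact permutation p of 0.8, where 3 against 3 libraries cannot go below 0.1. The 95% Wilson intervals of the libraries reached no further than 0.0370 points from the value, for counting error only. Within lane 6, butyrate 2 minus the control mean was -0.0318 points, and butyrate 2 lay inside the range of the controls.

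The rest of the autosomes did separate the groups. Its level was 69.5%, 69.6% and 69.4% in control 1 to 3 and 70.1%, 69.9% and 69.9% in butyrate 1 to 3. Every butyrate library was above every control library, by 0.493 points between the means (SE 0.0909, exact permutation p = 0.1, the smallest possible). Within lane 6 the difference was 0.397 points. The level in the islands relative to the rest fell by 0.478 points with butyrate, again with no overlap of the groups (exact permutation p = 0.1). On the log2 odds scale, which allows for the low level of the islands, the same contrast was -0.03 and the groups overlapped (exact permutation p = 0.2). The contrast thus had the same sign on both scales, whereas the separation of the groups depended on the scale.

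The mitochondrial sequence ordered the libraries almost as the islands did. Its level was 9.48%, 6.95% and 8.48% in control 1 to 3, and 11.2%, 8.10% and 8.90% in butyrate 1 to 3. Butyrate 1 and control 1 were the highest and butyrate 2 and control 2 the lowest in both, and only the middle pair, control 3 and butyrate 3, changed places. The 2 groups overlapped there too (difference 1.10 points, exact permutation p = 0.5). The sources used here give no conversion rate of the bisulfite step, and the part of what moves the mitochondrial level in that of the islands was not tested.

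**Figure D2:**
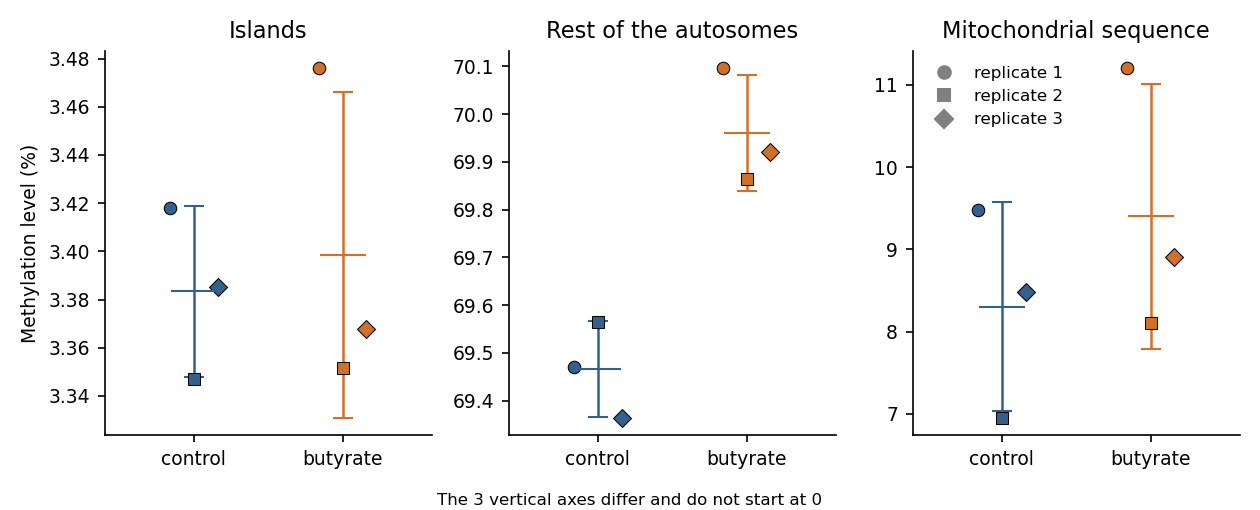
Methylation level (%, vertical axes that differ and do not start at 0) of each library in the islands, the rest of the autosomes and the mitochondrial sequence; points are libraries, horizontal lines group means and bars ± 1 SD (n = 3). The groups overlap in the islands and in the mitochondrial sequence, and in the rest of the autosomes all butyrate libraries lie above all controls.

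No class of islands by run length, CpG number or pooled level showed a difference that exceeded the spread between libraries. Among the run lengths, isolated low windows (runs of 1) had the highest level, 6.58% ± 0.126 in control and 6.58% ± 0.143 in butyrate (SD, n = 3). Runs of 2 had 4.28% and 4.32%, and runs of 3, 4 and 5 lay at 2.54% to 2.59% in both groups. Islands with 31 to 35 CpGs had 4.21% in control and 4.14% in butyrate, and those with over 60 CpGs had 2.89% in both. The largest difference among the classes of density was 0.101 points at 51 to 60 CpGs (SE 0.0762, exact permutation p = 0.3). Among the classes of pooled level, the largest was -0.0685 points in the islands at 10 to 15% (SE 0.158, exact permutation p = 0.9). In each of these 15 classes the groups overlapped.

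Other CpG-dense windows showed where a difference appeared. Dense low windows of longer runs had 2.91% in control and 2.96% in butyrate, with overlap (exact permutation p = 0.5). Dense windows at 15 to 50% had 29.5% in both groups, a difference of 0.0569 points (SE 0.134, exact permutation p = 0.7). At 50 to 80% the level was 69.4% in control and 70.1% in butyrate, and at 80% or more it was 88.1% and 88.5%. In the last pair of classes the groups did not overlap (differences of 0.706 and 0.403 points, exact permutation p = 0.1 each). A difference within the spread between libraries was thus not particular to the islands, since dense windows at 15 to 50% had one as well. The contrast of the islands with dense windows that were not low was -0.544 points without overlap (exact permutation p = 0.1), and on the log2 odds scale -0.03 with p = 0.2 by the same exact test. Dense windows at 50 to 80% were deeply read, with 6.18 to 8.04 reads per CpG and library, against 1.09 to 1.51 at 80% or more. In control 1 they held 1376967 of the 1894727 reads of the dense windows that were not low, so they weigh most in that contrast. Whether it holds without the deepest of them was not tested.

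**Figure D3:**
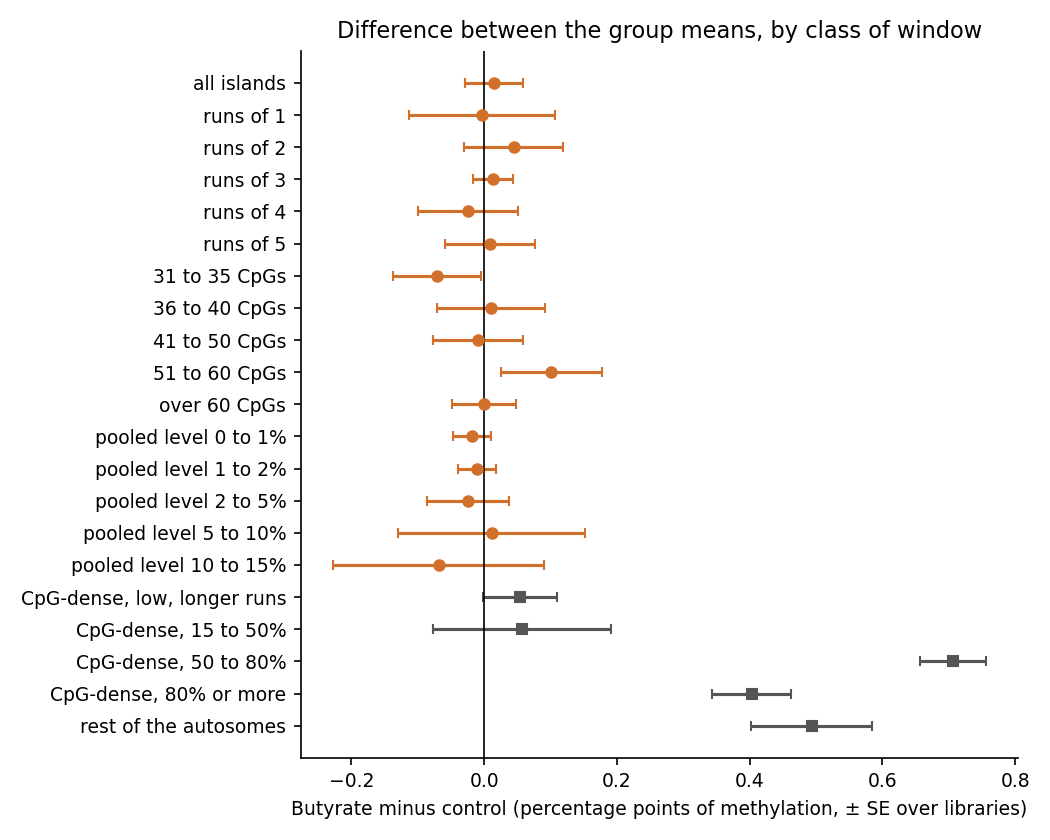
Butyrate minus control methylation (percentage points, horizontal axis, bars ± 1 SE over libraries) for all islands, for islands by run length, CpG number and pooled level (circles), and for other windows (squares). Every class of islands has overlapping groups, and the dense windows above 50% and the rest of the autosomes lie at 0.403 to 0.706 points.

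Runs were short and mostly mixed islands with sparser low windows. There were 2006 runs of 1 window, 4174 of 2, 4285 of 3, 2448 of 4 and 1073 of 5, or 500 to 2500 bp. Runs of 3 consisted of islands alone in 10.8% of cases and held 1.63 islands on average. The other low windows of these runs, 15915 with 30 or fewer CpGs, had 4.59% ± 0.0736 in control and 4.62% ± 0.0998 in butyrate (SD, n = 3), with overlap (exact permutation p = 0.5). Within runs of 3, an island at an edge had 3.28% in both groups and one in the middle 1.99% in control and 2.01% in butyrate. In runs of 5 the edge had 4.24% in both groups and the inner windows 2.17%. Edge windows were higher than inner ones in runs of 3, 4 and 5, which is a description because the rule ends a run where the next window is no longer low. The groups did not differ beyond their spread at either place.

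The rise out of an island was steep and took nearly equal values in both groups. In bins of 100 bp, the control mean went from 2.09% at 900 to 1000 bp inside the edge to 9.25% in the last bin inside. It was 21.97% in the first bin outside, 48.0% at 200 to 300 bp and 64.4% at 400 to 500 bp. In butyrate the values of these 5 bins were 2.07%, 9.26%, 21.98%, 47.9% and 64.6%. The edge was the end of a 500-bp window and not of the island itself, which blurs the slope. Runs of 1 window, which had the highest level by run length, are too short to reach the deepest bin. The bins inside thus do not hold the same runs, and this enters the slope there. Among windows that were not low, the one next to a run had 42.8% ± 0.402 in control and 42.9% ± 0.155 in butyrate (SD, n = 3, exact permutation p = 0.9).

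Further out, the difference seen in the rest of the autosomes was present. In windows 2 to 10 from the edge the butyrate mean was the higher one, by 0.297 to 0.720 points. The groups overlapped in windows 2, 5, 7 and 8 and did not overlap in windows 3, 4, 6, 9 and 10. Summed over the windows from 500 to 5000 bp outside, the level was 75.01%, 75.15% and 75.05% in control 1 to 3, and 75.8%, 75.3% and 75.5% in butyrate 1 to 3. All butyrate libraries lay above all controls, by 0.468 points (exact permutation p = 0.1). Within lane 6 the difference was 0.254 points. For the island level minus the flank level, butyrate minus control was -0.453 points (exact permutation p = 0.1). The flanks had risen by 0.468 points and the islands by 0.0151. The contrast with the flanks was not tested on the log2 odds scale.

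**Figure D4:**
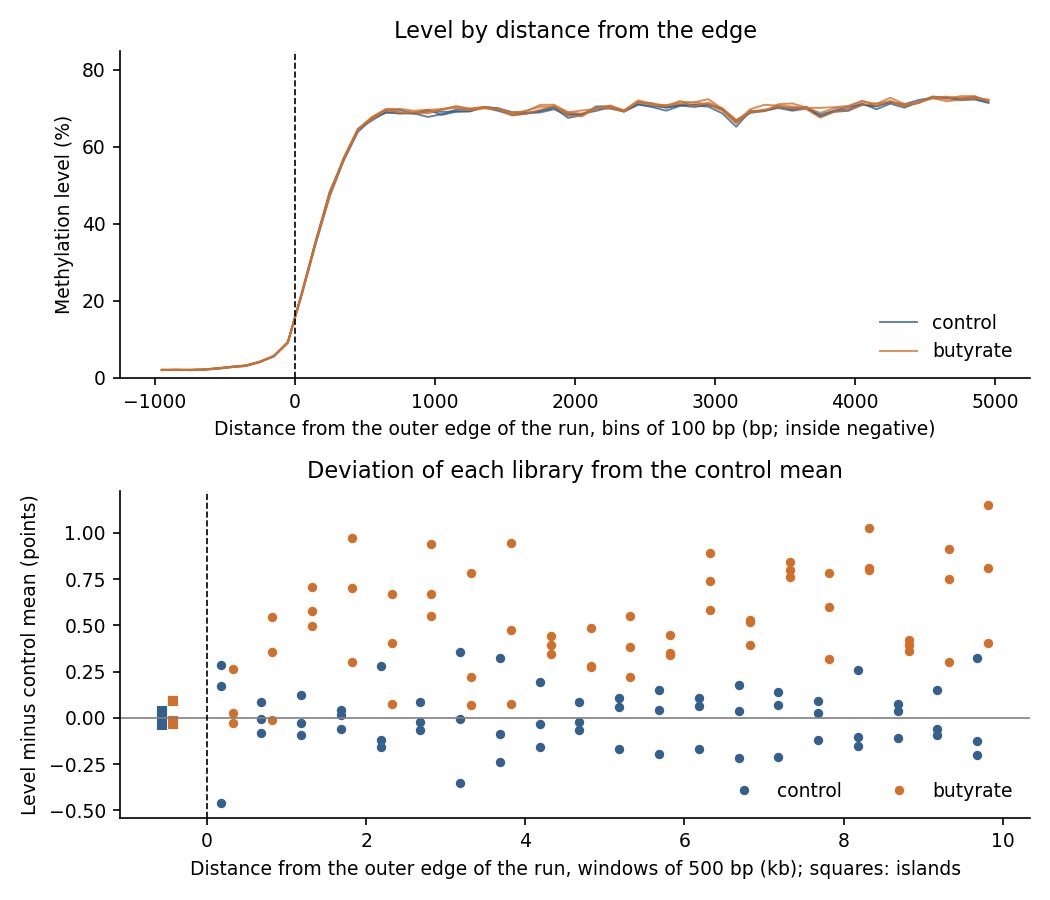
Upper panel: methylation level (%) of each library by distance from the outer edge of a run (bp, inside negative, bins of 100 bp), where the 6 lines lie on each other from 2.09% deep inside to 64.4% near 500 bp outside (control means). Lower panel: level of each library minus the control mean (percentage points) in the islands (squares) and in windows that are not low by distance from the edge (kb, bins of 500 bp), where the groups overlap in the islands and in the first window outside, and butyrate lies higher in most windows beyond.

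Islands were unevenly spread over the chromosomes. Overall there were 8.94 island windows per Mb. Chromosome 25 had 22.4, chromosome 19 had 20.6 and chromosome 18 had 18.4, whereas chromosome 20 had 5.27. All windows with over 30 CpGs were spread unevenly too, with 55.1, 36.7 and 35.2 per Mb on chromosomes 25, 19 and 18 and 12.2 on chromosome 20. Islands were 40.8% of these dense windows on chromosome 25, against 49.9% on all autosomes. Neighbouring runs on a chromosome were 54000 bp apart at the median, with quartiles of 17500 and 150000 bp, and 4.94% of the gaps were 2 kb or less. The islands of 14 of 29 chromosomes had a higher level in butyrate, with differences from -0.157 points on chromosome 3 to 0.292 on chromosome 17. On chromosome 17 and on chromosome 6 (-0.127 points) the groups did not overlap (exact permutation p = 0.1 each, the smallest possible). On every other chromosome the exact permutation p was 0.3 or more. In the rest of the sequence the level was higher in butyrate on 29 of 29 chromosomes, by 0.201 to 0.621 points. Chromosomes share libraries, so these counts are a description.

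Chromosome 27 had the highest island level. Its 283 islands had 7.71% ± 0.229 in control and 7.76% ± 0.236 in butyrate (SD, n = 3), against 2.40% to 4.63% in control on the other autosomes. Of these islands, 8 had over 5000 reads over the 6 libraries and held 47.4% of the island reads of the chromosome. Without them its level was 4.92% in control and 5.05% in butyrate, still above the 2.40% to 4.63% of the other autosomes with their deep islands included. On all autosomes 26 islands were that deep, held 4.58% of the island reads and had 10.8% in both groups. Without them the level of the islands was 3.04% ± 0.0322 in control and 3.03% ± 0.0625 in butyrate (SD, n = 3, difference -0.00515 points, exact permutation p = 0.9).

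The 3 most deeply read islands were high for islands in every library. The window chr27:23702501-23703000, with 67 CpGs, held 28681 reads and had 8.09%, 7.88% and 7.59% in control and 10.2%, 8.61% and 8.57% in butyrate. The window chr25:32472501-32473000, with 61 CpGs, held 24398 reads and had 10.04%, 17.0% and 12.5% in control and 11.8%, 10.9% and 14.4% in butyrate. The window chr4:103654001-103654500, with 40 CpGs, held 19157 reads and had 10.9%, 12.2% and 10.3% in control and 11.6%, 12.7% and 11.1% in butyrate. Only the first had groups without overlap.

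The densest islands were nearly free of methylation. The window chr1:152694501-152695000 held 98 CpGs, in a run of 4, and had 2.40%, 1.81% and 4.76% in control 1 to 3 and 3.31%, 5.26% and 18.8% in butyrate 1 to 3. The last of these values rested on 16 reads, and the groups overlapped. The window chr29:50570501-50571000, also of 98 CpGs but an isolated low window, had 0% to 2.73% in control and 0% to 7.07% in butyrate. The windows chr12:36106001-36106500, with 97 CpGs, and chr25:37712001-37712500, with 95, had pooled levels of 2.11% and 0.849%. None of these 4 windows passed a q of 0.05.

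Single CpGs inside islands were described by their pooled level, which the rule keeps low. Of the CpGs in islands, 139906 or 13.4% had at least 10 reads over the 6 libraries. Of these, 74.1% had no methylated read, 2.51% lay at 20 to 50% and 316, or 0.226%, at 50% or more, in 227 windows. With at least 5 reads in each group, 221 CpGs had 50% or more in control. In butyrate their level was 42.7%, and 40.7% of them were again at 50% or more, against 0.203% of the CpGs that were under 50% in control. The reverse choice gave 237 CpGs at 50% or more in butyrate, with 41.9% in control. A CpG chosen in one group from as few as 5 reads falls back in the other by the choice and counting error alone, so these values are a description and show no difference between the groups.

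The 2 cytosines of a CpG in an island differed slightly in level. Where both were read, the cytosine at the lower position had 3.82% to 4.03% over the 6 libraries and the other had 3.68% to 3.96%. The lower position was the higher of the pair in 6 of 6 libraries. The files do not name the strand.

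Single islands were then tested for a difference between the groups. In a test like that of the study's methods, with Benjamini-Hochberg adjustment in place of the study's SLIM method, windows were summed over the CpGs that reached 10 reads in the library, methylated and unmethylated counts were fitted to treatment by logistic regression, and a differentially methylated region (DMR) had a Benjamini-Hochberg q under 0.05 and a difference of over 10 points. Only 52 islands could be tested and 22399 could not, because their CpGs were not read deeply enough. DMRs were 0 of the 52 islands, against 0.789% of the 8874 windows tested in all. At an unadjusted p under 0.05 there were 19 of the 52, or 36.5%, against 13.3% of all windows tested. A q under 0.05 was reached by 6 of the 52, or 11.5%, against 1.65% of all. Butyrate was higher in 3 of these and lower in the other 3. The differences of the 52 islands ran from -4.94 to 4.80 points. These islands were 0.232% of all islands and were admitted by their depth, so their shares do not stand for the islands as a whole. With many reads this test gives a low q to a small difference. The window chr27:23702501-23703000, with 28681 reads, had a q of 0.0141 at 1.32 points.

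When every CpG of a window entered the sum, with 10 or more reads required of each library, 14764 islands were tested and 7687 were not. DMRs were 45 of them, or 0.305%, against 0.517% of 103361 windows in all, with 21 higher and 24 lower in butyrate. Without the threshold on the difference, 66 islands or 0.447% had a q under 0.05, against 0.582% of all windows. They comprised 33 that were higher, or 0.224% of the islands tested, where the share of all windows was 0.323%. The 33 that were lower were the same share of islands, where the share of all windows was 0.259%. A pooled level under 15% limits how far the groups of an island can differ, so a difference of over 10 points is harder to reach there than elsewhere. The spread of the differences was narrower as well: the middle 95% ran from -5.43 to 5.61 points in the islands and from -14.7 to 15.60 points in the other windows tested.

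The direction was balanced in the islands. Butyrate was higher in 48.9% of the islands tested, lower in 49.7% and equal in 1.35%, with a median difference of 0 points, whereas the median over all windows was 0.304 points and 53.0% were higher. Groups without overlap were found in 537 islands with butyrate higher, or 3.64%, where all windows had 5.33%. Groups without overlap and butyrate lower were found in 625 islands, or 4.23%, where all windows had 4.0%.

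The logistic regression takes each read as an independent draw and does not see the spread between libraries. At an unadjusted p under 0.05 it gave 10.1% of the islands and 10.4% of all windows. The quasi-binomial F test, which scales by the spread between libraries, left 0 islands with a q under 0.05 (145 islands, or 0.982%, at an unadjusted p under 0.05, against 1.18% of all windows). limma on log2 ratios of methylated to unmethylated counts also left 0, with 957 islands, or 6.48%, at an unadjusted p under 0.05, against 5.46% of all windows. Neither of these tests, which use the spread between libraries, called any of the 103361 windows at that q, so the 0 is not particular to the islands.

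In 32 of the 66 islands exactly 1 library was at 15% or more. This count does not show that the difference rested on that library. The window chr19:57019501-57020000 had 48.5% in butyrate 3 and 0% in the other butyrate libraries. In contrast, chr4:118011501-118012000 had 9.76%, 15% and 9.09% in control and 0% in every butyrate library. The groups had no overlap in 40 of the 66, or 60.6%, with butyrate higher in 17 and lower in 23. Among all 602 windows at a q under 0.05, 66.8% had no overlap, with butyrate higher in 225 and lower in 177. The absolute difference of the 66 islands was 12.9 points at the median and 1.24 to 28.6 points in range. They were less unmethylated than other islands, with a median pooled level of 8.39% against 2.11% among all islands tested. At an edge of their run lay 83.3% of them against 54.0%. A level near the threshold leaves more room for a difference, so these values are given without a test.

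The windows beside the 66 islands were split in direction. Among 33 neighbours of the same run with at least 10 reads in every library, 17 differed in the direction of the called island and 16 in the opposite one, with a median of 0.613 points toward the called direction. Among 24 neighbours outside the run, 13 differed in the same direction and 11 in the opposite one. The 66 islands lay in 65 runs, so 1 run held a pair of them. That pair was chr27:23702501-23703000 and chr27:23703001-23703500, chosen here after its values were seen, where the first was higher by 1.24 points and the second lower by 3.04 points in butyrate.

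The named islands higher in butyrate were the 4 of the smallest p without overlap of the groups. The window chr22:61314501-61315000, with 44 CpGs in a run of 2, had 4.88%, 1.11% and 1.09% in control 1 to 3 and 19.7%, 5.26% and 22.7% in butyrate 1 to 3, from 22 to 92 reads per library (q = 0.000863). The isolated low window chr13:61628001-61628500, with 47 CpGs, had 3.57%, 8.33% and 3.81% in control and 39.4%, 14.0% and 16.7% in butyrate (q = 0.00199). All 3 butyrate libraries were above all controls in both, and the highest value rested on 22 reads in the first and on 33 reads in the second.

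The window chr25:34246501-34247000, with 74 CpGs in a run of 3, had 6.67%, 6.12% and 9.29% in control and 12.9%, 24.8% and 20.9% in butyrate (q = 0.00217). It was the best read of the 4, with 75 to 148 reads per library. The window chr22:43815501-43816000, with 54 CpGs in a run of 5, had 0% in all 3 controls and 3.03%, 32.3% and 4.55% in butyrate (q = 0.00268). Here most of the difference came from butyrate 2, and the controls held 18 to 85 reads.

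The named islands lower in butyrate were chosen in the same way. The window chr25:1540501-1541000, with 80 CpGs in a run of 3, had 4.65%, 10.7% and 46.9% in control and 2.99%, 1.15% and 1.49% in butyrate (q = 3.12e-07). Control 3 stood far above the other libraries. The isolated low window chr18:34921501-34922000, with 64 CpGs, had 10.2%, 24.0% and 18.4% in control and 3.41%, 4.80% and 5.19% in butyrate (q = 1.85e-05). All butyrate libraries were near 5% or under it, and every control was above them.

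The window chr7:82835001-82835500, with 72 CpGs in a run of 2, had 12.7%, 39.5% and 50% in control and 0%, 6.78% and 10.9% in butyrate (q = 0.00095). Its highest butyrate value, 10.9%, lay close under the lowest control value, 12.7%. The isolated low window chr6:108716501-108717000, with 48 CpGs, had 3.57%, 28.8% and 10% in control and 2.22%, 0% and 0% in butyrate (q = 0.00268). Control 1, at 3.57% from 28 reads, was near butyrate 1 at 2.22% from 45 reads.

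**Figure D5:**
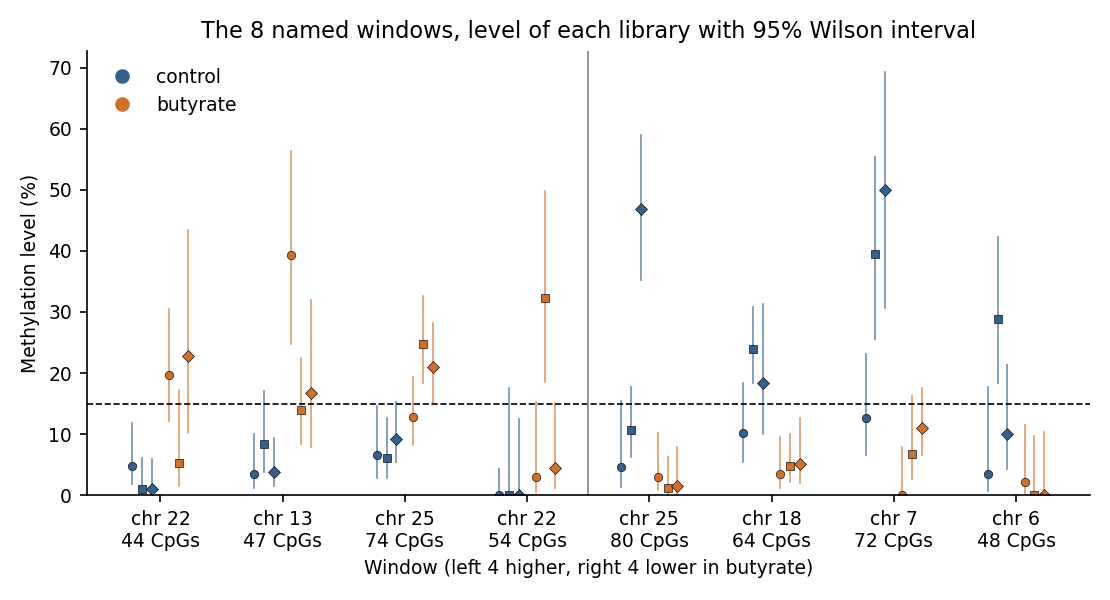
Methylation level (%, vertical axis) of each library in the 4 named islands higher and the 4 lower in butyrate (horizontal axis, by chromosome and number of CpGs), with 95% Wilson intervals for counting error; circles, squares and diamonds are replicates 1, 2 and 3, and the dashed line is 15%. The groups do not overlap in any of the 8 windows, as the choice required, and single libraries reach 30% or more in 4 of them.

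The islands took a slightly smaller share of the reads after butyrate, and the groups overlapped. Their share of the autosomal reads was 5.16%, 5.34% and 5.29% in control 1 to 3 and 5.17%, 5.12% and 4.97% in butyrate 1 to 3. Control 1 lay below butyrate 1, and the other 2 controls lay above all butyrate libraries. The means were 5.26% ± 0.0922 and 5.09% ± 0.108 (SD, n = 3), and the difference of -0.175 points had an exact permutation p of 0.2. Within lane 6 it was -0.141 points, and without butyrate 3 it was -0.114 points. Without control 1, the only control below a butyrate library, the groups could not overlap. The difference was then -0.226 points (exact permutation p = 0.1, the smallest possible). Without butyrate 1 the groups did not overlap either (-0.218 points, exact permutation p = 0.2). Leaving out any other library gave an exact permutation p of 0.3.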

How the data were processed

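WGBS of 3 control and 3 butyrate libraries was used as deposited: counts of methylated and unmethylated reads per CpG cytosine, without header or normalization by the authors. Per the study's methods and the labels, the authors trimmed reads with Trim Galore 0.4.1 and mapped them to UMD3.1.1 with Bismark and bowtie2. For duplicate removal and conversion rate, the sources used here give nothing, and the labels and methods differ on read length. Reads of a site can thus be less independent than counted, and intervals cover counting error only. Groups came from the labels. The members, named windows and tests were chosen with earlier results of these data known.

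Rows at neighbouring positions were joined as 1 CpG. Which column held methylated reads was read from the values: it had most reads outside CpG-dense windows. A level was methylated over all reads, so deep sites weigh more. Groups were compared by two-sided exact permutation tests over 10 splits. Windows were tested over all sequences by logistic regression (likelihood-ratio test), a quasi-binomial F test (dispersion of at least 1), and limma 3.58.1 on log2((methylated + 1)/(unmethylated + 1)), with Benjamini-Hochberg adjustment. Over single islands, the deviations of same-numbered libraries had a largest absolute correlation of 0.00587, and pairs of unlike number reached 0.00701. Single islands were thinly read, so this cannot show whether the numbers pair the libraries. Summed over the islands, replicate 1 was the highest and replicate 2 the lowest in both groups. The named windows were the 4 of smallest p in each direction without overlap, the 4 with most CpGs, the 3 with most reads and 3 on each side of the threshold. The window tests were also run on simulated counts without spread between libraries, which cannot show how they behave under that spread. Python 3.11.15, NumPy 2.4.6, SciPy 1.17.1, pandas 2.3.3, Matplotlib 3.10.9 and R 4.3.3 were used.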

Additional observations from a re-analysis of the deposited data

How the results depend on the processing

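The difference between the groups inside the islands had no stable sign. It was 0.0151 points as reported, -0.0318 within lane 6, -0.0214 as a mean of the levels of single windows, -0.000903 in the libraries that had not chosen the islands, and -0.00515 without islands of over 5000 reads. Leaving out one library gave -0.0237 (without butyrate 1) to 0.0385 points. In these and the other alternatives (no very deeply read cytosines, other thresholds, shifted windows, over 30 cytosines, log2 odds) no exact permutation p was under 0.5. Islands chosen on the 3 controls alone had 3.35%, 3.27% and 3.31% in control and 3.58%, 3.45% and 3.47% in butyrate, and islands chosen on butyrate alone had 3.501%, 3.41% and 3.45% in control and 3.37%, 3.23% and 3.27% in butyrate, so the group that chose them was the lower each time.

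The contrast with the rest of the autosomes, the flank difference and the read share kept their direction under all alternatives run for them. Islands called DMR with all CpGs summed were 45 of 14764 tested, and 0 with the quasi-binomial F test. They were 41 of 18220 with at least 5 reads per window (0.225%, against 0.241% of all windows). With at least 20 they were 28 of 8078 (0.347%, against 0.641%). When one library was left out they were 40 to 61, or 0.256% to 0.393% of the islands tested, against 0.438% to 0.509% of all windows. Islands at a q under 0.05 were 66 of 14764, 0 with the quasi-binomial F test and 0 with limma. With the same read minimums they were 53 of 18220 (0.291%, above the 0.255% of all windows) and 53 of 8078 (0.656%, below 0.883%). When one library was left out they were 50 to 79, or 0.320% to 0.510% of the islands tested, against 0.467% to 0.548% of all windows. Of the 66 islands, 28 to 42 remained with a library left out, and 61 to 66 kept their direction. With the replicate number as a block there were 47 and 75 (0.318% and 0.508%, against 0.591% and 0.673% of all windows). Whether the numbers pair the libraries is not known. The paired exact sign-flip test, which cannot go below 0.25, gave 0.0151 points with p = 0.75. The alternatives of over 5000 reads, of cytosines in place of CpGs and of other read minimums at a q under 0.05 were chosen after seeing the data.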
